A study of Mus musculus with 3 samples.

Results

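The 38 genes described here encode the machinery that licenses replication origins and copies DNA at the fork, from the origin recognition complex and the MCM helicase to the clamp, the polymerases, DNA ligase and the enzymes that supply deoxynucleotides. They were taken by gene symbol from the expression tables of 3 bone marrow libraries, and all 38 were found among 23238 distinct symbols. The libraries came from wild type C57BL/6 male mice that were 6 weeks old, received sterile water, the vehicle, by oral gavage for 28 days and were harvested on day 29. Marrow cells were freed of red blood cells by lysis, and 500 ng of their RNA went into Lexogen QuantSeq libraries, made from transcript ends next to the poly(A) tail. The series sets this vehicle against Asari Radix et Rhizoma, a dried wild ginger root and rhizome, but libraries of that arm were not analysed here. Every comparison below is therefore between genes or between the vehicle libraries. The labels do not say whether each library came from a separate mouse, so p-values measure only the spread between these samples, which may be technical.

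Before DNA synthesis, the origin recognition complex with Cdc6 and Cdt1 loads the MCM hexamer onto DNA, and geminin later binds Cdt1 to block reloading. Cdc45 and the GINS complex then turn the loaded hexamer into the active helicase, behind which primase, the polymerases, the PCNA clamp with its RFC loader, flap endonuclease and ligase make the new strands. In marrow these genes are used by dividing erythroblasts, granulocyte precursors, early B cells and progenitors, while mature neutrophils have left the cycle. In a bulk sample such as this, fewer cells of a type and less RNA per cell cannot be told apart.

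Replicates 1, 2 and 3 had 9168435, 8104828 and 9137125 reads on genes, of which the replication genes took 81406 in all. Levels are given in counts per 1000000 reads (CPM) with library sizes adjusted by the trimmed mean of M values (TMM). That adjustment was used because scaling to library totals left replicate 1 with a median gene that was 0.15 higher (log2) than elsewhere, against 0.01 after it. The kit is designed to give about 1 fragment per transcript, so no correction for length was applied. How evenly the transcripts of different genes were primed was not tested. Folds between genes below are therefore ratios of reads, which may differ from ratios of transcripts. Each gene was tested for a difference between libraries beyond counting noise with an exact binomial test, adjusted over 11833 genes by the Benjamini-Hochberg method, and "called" below means an adjusted p under 0.05. Globin entries took 10.1%, 15.1% and 15.0% of reads and the ribosomal RNA entry Rn45s 18.8%, 20.3% and 18.6%. Each marker list of the marrow lineages had detected genes, and the sums by library are given after the gene groups. Of the listed markers, 7 of 8 for promyelocytes and 7 of 8 for T and NK cells were measured. Of 10 stem and progenitor markers, 8 had enough reads to be tested.

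All 38 genes had at least 30 reads over the libraries, the minimum for testing, and they covered a 54.2-fold range of levels. The highest was Lig1 at 576 ± 20.02 CPM (SD, n = 3) and the lowest Orc1 at 10.6 ± 3.82 CPM. Their median level was 49.7 CPM, against 16.8 CPM for all genes tested, and 33 of the 38 lay above the middle of that ranking. Lig1 alone made up 18.7% of their summed level and Mcm7 a further 11.2%. The 7 highest genes, Lig1, Mcm7, Rfc1, Rrm1, Mcm3, Pola1 and Mcm2, made up 56.1%. Of the 37 pairs of neighbours in the order of all 38 levels, 32 had ranges over the libraries that overlapped, so most neighbouring ranks did not differ beyond their spread.

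**Figure D1:**
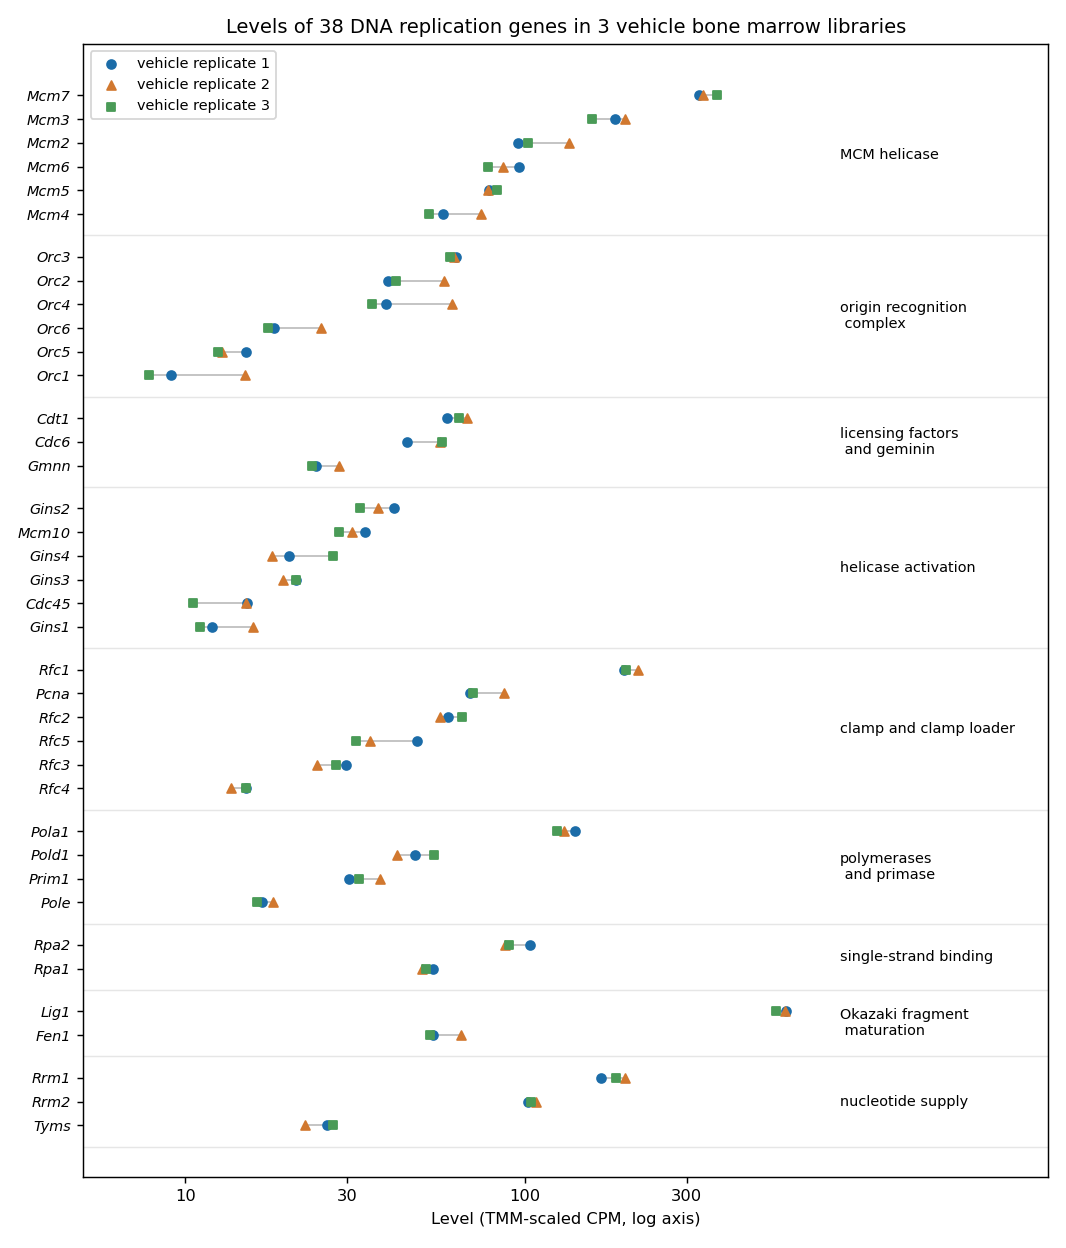
Levels of the 38 replication genes (TMM-scaled CPM, log axis) in vehicle replicates 1, 2 and 3, grouped by role and ordered by mean within a role, with a grey line over the range. Genes of a role spread widely, from 10.6 CPM for Orc1 to 61.7 CPM for Orc3 in the origin recognition complex, while the 3 points of most genes lie close together.

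The MCM genes encode 6 related subunits that sit 1 each in the helicase ring, yet their levels in CPM differed 5.60-fold. Mcm7 (GRCm38 chromosome 5, 138164583 to 138172422, minus strand) stood far above the others, at 327, 336 and 370 CPM in replicates 1, 2 and 3. Mcm3 followed at 184, 197 and 158 CPM, and neither range overlapped that of any other subunit. Mcm2 had 95.5, 135 and 102 CPM, a range that overlapped the next gene in the order, Mcm6. Mcm6 had 96.2, 86.3 and 78.1 CPM and Mcm5 had 78.6, 77.7 and 83.1 CPM. The order of these last genes was therefore not separated by their spread, Mcm6 being above Mcm5 in 2 of 3 libraries. Mcm4 was the lowest, at 57.5, 74.6 and 52.2 CPM, below Mcm5 in 3 of 3 libraries. The entry of Cops6, a neighbour that overlaps Mcm7 on the opposite strand at its 3′ end, held 901 reads, 9.91% of the reads of Mcm7, and whether reads were counted by strand is not given in the sources used here.

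The MCM promoters are shown because these genes are textbook targets of the E2F transcription factors, which drive transcription at the start of S phase. The RefSeq table (GRCm38.p6) listed promoters for 5 of the 6 MCM genes. Each run covers 250 bases before to 50 after the first listed start, 5′ to 3′ on the gene's strand, and positions count the start as 1 and the base before it as -1. Capitals mark matches to the E2F words TTTCCCGC, TTTGGCGC, TTTGCCGC or TTTCGCGC and to the box CCAAT, on either strand.
Mcm2, chr6:88898731-88899030, minus strand: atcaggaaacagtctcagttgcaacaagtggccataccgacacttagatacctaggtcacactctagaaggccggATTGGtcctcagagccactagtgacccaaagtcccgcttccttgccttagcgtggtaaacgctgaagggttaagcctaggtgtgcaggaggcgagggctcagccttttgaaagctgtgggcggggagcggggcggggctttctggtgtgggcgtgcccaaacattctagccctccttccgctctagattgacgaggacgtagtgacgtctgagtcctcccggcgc
Mcm3, chr1:20820263-20820562, minus strand: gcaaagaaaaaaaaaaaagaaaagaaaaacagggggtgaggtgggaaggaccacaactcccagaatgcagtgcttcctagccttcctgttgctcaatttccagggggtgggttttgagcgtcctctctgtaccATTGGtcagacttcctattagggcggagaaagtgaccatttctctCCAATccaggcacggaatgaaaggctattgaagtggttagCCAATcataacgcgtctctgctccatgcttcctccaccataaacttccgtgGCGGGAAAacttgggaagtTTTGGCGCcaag
Mcm5, chr8:75109259-75109558, plus strand: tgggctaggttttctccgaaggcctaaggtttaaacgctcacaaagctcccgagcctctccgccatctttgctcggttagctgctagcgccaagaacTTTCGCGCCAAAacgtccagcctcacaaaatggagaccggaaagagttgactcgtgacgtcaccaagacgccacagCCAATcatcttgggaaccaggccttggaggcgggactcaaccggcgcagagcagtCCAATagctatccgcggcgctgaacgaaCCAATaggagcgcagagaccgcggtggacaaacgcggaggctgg
Mcm6, chr1:128359656-128359955, minus strand: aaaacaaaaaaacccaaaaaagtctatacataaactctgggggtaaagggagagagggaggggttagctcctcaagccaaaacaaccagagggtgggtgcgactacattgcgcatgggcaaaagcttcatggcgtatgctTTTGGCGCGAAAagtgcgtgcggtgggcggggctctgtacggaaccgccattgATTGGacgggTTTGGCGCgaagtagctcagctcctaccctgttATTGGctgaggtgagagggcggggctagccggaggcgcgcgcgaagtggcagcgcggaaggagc
Mcm7, chr5:138171834-138172133, minus strand: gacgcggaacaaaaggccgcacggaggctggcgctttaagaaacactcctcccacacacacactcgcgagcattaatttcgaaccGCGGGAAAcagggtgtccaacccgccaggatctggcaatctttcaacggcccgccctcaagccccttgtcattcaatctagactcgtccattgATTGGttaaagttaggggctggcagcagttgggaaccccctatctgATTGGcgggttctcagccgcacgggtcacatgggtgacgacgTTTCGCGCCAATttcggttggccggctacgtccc
Mcm6 held 3 E2F words, of which the pair beginning 110 and 106 bases before the start (positions -110 and -106) overlap on opposite strands. Mcm5 held a like overlapping pair at -153 and -149. Mcm3 had its 2 words after the start, at 20 and 39, and Mcm7 had 1 on either side of it, at -165 and 17, the second sharing a base with a CCAAT box. Mcm2 held no E2F word in this window and a single CCAAT box.

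Among the replication genes as a whole, 31 had promoters in that table, and 13 of them (41.9%) held an E2F word at any listed start. The same words were in 2.61% of all 27025 genes of the table, and in 4.71% of the 8965 of these with at least 30 reads in the libraries. The other genes with a word were Orc1, Orc3, Cdc6, Cdt1, Gins3, Rfc3, Pola1, Pold1 and, at the second of its 3 listed starts, Lig1. Not listed were Mcm4, Gmnn, Gins1, Gins2, Gins4, Rfc2 and Pole. With the first listed start alone the share was 38.7%, against 2.32% of all genes. A CCAAT box was in 67.7% of the replication genes' promoters, against 41.1% of all genes and 43.2% of those with at least 30 reads. The cell cycle homology region (CHR), searched as TTTGAA or TTCGAA, was in 19.4%, against 21.7% of all genes and 16.5% of those with at least 30 reads, so its share lay between these backgrounds. Genes with an E2F word had a median level of 63.4 CPM and 8 of 13 were called, while the 18 listed genes without one had a median of 45.8 CPM and 11 were called. The 7 genes with no promoter listed had a median of 25.5 CPM and 3 were called, where 51.8% of all tested genes were. A match is a stretch of letters and not a measured binding site.

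**Figure D2:**
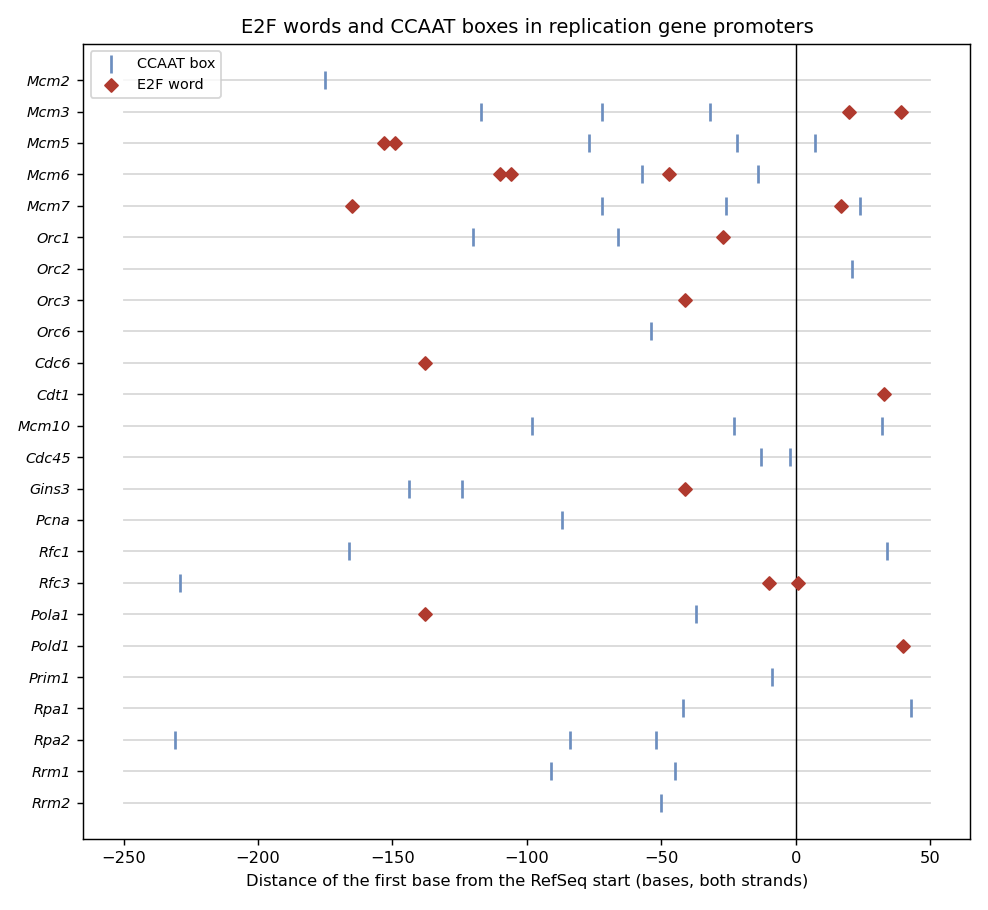
Positions of E2F words (diamonds) and CCAAT boxes (bars) in the first listed RefSeq promoter of each replication gene that holds either, as the distance of the first base from the start in bases. E2F words lie between 165 bases before and 40 after the start.

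Of the MCM genes, 5 of 6 were called as different between libraries, against 51.8% of all genes tested, and the 5 were not all highest in the same library. The share of all tested genes called rose with level, so 51.8% is a low background for them. It was 59.8% at 30 to 100 CPM, 78.1% at 100 to 300 CPM and 93.2% at 300 to 1000 CPM, the bins that hold the MCM genes. Mcm2 was highest in replicate 2 and 1.42-fold above its lowest library (exact binomial adjusted p = 4.12e-14). Mcm4 was also highest there, 1.43-fold (2.25e-07), and so was Mcm3, 1.25-fold above replicate 3 (1.66e-07). Mcm6 was highest in replicate 1 (1.23-fold, exact binomial adjusted p = 0.00184), while Mcm7 was highest in replicate 3 (1.13-fold, 1.04e-05). Mcm5 did not pass (exact binomial adjusted p = 0.670), with a coefficient of variation (CV) of 3.61%. Without replicate 2, Mcm2 and Mcm4 were not called (exact binomial adjusted p = 0.285 and 0.236). Without replicate 3, Mcm3 and Mcm7 were not (0.132 and 0.531), and Mcm6 was not called without replicate 1 or without replicate 3 (0.144 and 0.0706). On library totals Mcm3 and Mcm5 were highest in replicate 1.

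The origin recognition complex, whose ATPase subunits mark origins for MCM loading, had a median level of 32.8 CPM, against 98.9 CPM for the MCM genes, and its subunits formed a higher and a lower set. Orc3 had 62.9, 61.9 and 60.4 CPM in replicates 1, 2 and 3, the smallest spread of all 38 genes (CV 2.04%). Orc2 had 39.6, 58.0 and 41.8 CPM and Orc4 had 39.1, 61.0 and 35.4 CPM, and their ranges overlapped. The other subunits lay below these in 3 of 3 libraries. Orc6 had 18.3, 25.2 and 17.5 CPM, Orc5 had 15.1, 12.8 and 12.5 CPM, and Orc1 (chromosome 4, 108579423 to 108614833) had 9.09, 15.0 and 7.80 CPM from 89, 119 and 68 reads. The exact 95% Clopper-Pearson interval of Orc1 ran from 12.4 to 17.9 CPM in replicate 2 and from 6.05 to 9.88 CPM in replicate 3, and covers counting error only. Orc1 is the subunit best known for periodic expression in the cycle, and its promoter is shown for that reason, with the E2F word and CCAAT boxes in capitals.
Orc1, chr4:108579204-108579503, plus strand: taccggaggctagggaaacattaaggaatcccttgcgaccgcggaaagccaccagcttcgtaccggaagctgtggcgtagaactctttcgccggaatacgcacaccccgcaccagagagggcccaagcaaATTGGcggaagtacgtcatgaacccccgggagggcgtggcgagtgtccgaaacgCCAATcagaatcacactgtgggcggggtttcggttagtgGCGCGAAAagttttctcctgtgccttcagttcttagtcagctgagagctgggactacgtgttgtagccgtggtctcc

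Orc1, Orc2, Orc4 and Orc6 were all highest in replicate 2, while Orc3 and Orc5 did not pass the test. Orc1 and Orc4 had the largest spreads of the 38 genes, 1.92-fold (CV 36.0%, exact binomial adjusted p = 8.58e-05) and 1.72-fold (CV 30.6%, 4.77e-14) between the highest and lowest library. Orc2 differed 1.46-fold (1.31e-07) and Orc6 1.43-fold (0.00223). The adjusted p-values of Orc3 and Orc5 were 1 and 0.396. Without replicate 2 none of these 4 was called (exact binomial adjusted p = 0.535 for Orc1, 0.618 for Orc2, 0.332 for Orc4 and 0.840 for Orc6), so these calls rested on replicate 2. Neighbouring entries may bear on some of these values, which was not tested. Acvr2a, which overlaps Orc4 on the opposite strand at its 3′ end, held 546 reads against 1177 for Orc4, and Nif3l1 held 190 against 1214 for Orc2. The pseudogene entry Gm15421 overlaps Orc5 on the same strand and held 749 reads against 359. Vps35, which overlaps Orc6 on the opposite strand, held 2951 against 532.

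Both loading factors were above geminin in 3 of 3 libraries. Cdt1, which brings MCM to origins, had 58.9, 67.5 and 63.9 CPM, and Cdc6, the ATPase that works with it, had 45.04, 56.2 and 57.1 CPM. Gmnn, encoding geminin, had 24.3, 28.4 and 23.6 CPM. Cdc6 was called, lowest in replicate 1 (1.27-fold, exact binomial adjusted p = 0.000744), and lost the call without replicate 1 (0.897) and on library totals (0.112). Cdt1 and Gmnn did not pass (0.172 and 0.177).

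Helicase activators were the lowest group by median, at 21.2 CPM. Gins2 had 41.2, 37.0 and 32.7 CPM and Mcm10, which helps the helicase start, had 33.9, 30.9 and 28.3 CPM. Both were ordered alike over the libraries, though neither passed the test (exact binomial adjusted p = 0.0513 and 0.239). Gins4 had 20.2, 18.0 and 27.2 CPM and Gins3 had 21.2, 19.4 and 21.2 CPM. Gins1 had 12.0, 15.8 and 11.005 CPM and Cdc45, the partner of GINS at the helicase, had 15.2, 15.1 and 10.5 CPM. The 4 GINS subunits form 1 complex in equal parts, yet their levels in CPM differed 2.86-fold between Gins2 and Gins1 and were not all highest in the same library. Gins4 was highest in replicate 3 (1.51-fold, exact binomial adjusted p = 0.000675), Gins1 in replicate 2 (1.44-fold, 0.0331), and Cdc45 was lowest in replicate 3 (1.44-fold, 0.0173). Without replicate 3, Gins4, Cdc45 and Gins1 were not called (exact binomial adjusted p = 0.424, 0.982 and 0.0842), and Gins1 was not called without replicate 2 or on library totals (0.720 and 0.0581). Gins2, just outside the threshold, was called in 7 alternatives, with adjusted p from 0.000469 on library totals to 0.0443 with a 300-read minimum, and Mcm10 on library totals (0.00728). Gse1, which overlaps Gins2 on the opposite strand at its 3′ end, held 1378 reads against 982.

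Among the clamp and its loader, the large loader subunit Rfc1 stood apart from the small subunits. Rfc1 had 196, 215 and 199 CPM, and Pcna, the sliding clamp that holds the polymerases on DNA, had 69.1, 87.0 and 70.5 CPM. The small subunit genes formed a ladder with no overlap between neighbours. Rfc2 had 59.5, 56.1 and 65.3 CPM, Rfc5 had 48.0, 35.0 and 31.9 CPM, Rfc3 had 29.8, 24.4 and 27.7 CPM, and Rfc4 had 15.1, 13.6 and 15.1 CPM. Rfc1 thus exceeded Rfc4 13.9-fold, the widest ratio of highest to lowest gene within any of the 9 roles. Pcna was highest in replicate 2 (1.26-fold, exact binomial adjusted p = 6.36e-05), as was Rfc1 (1.10-fold, 0.0256), whereas Rfc5 was highest in replicate 1 (1.51-fold, 2.65e-07). Without replicate 2 Pcna and Rfc1 were not called (exact binomial adjusted p = 0.838 and 0.785), and without replicate 1 Rfc5 and Rfc1 were not (0.436 and 0.0633), while Rfc2 was (0.0494). Rfc3 was called on library totals only (0.0172). Eif4a2 at the 3′ end of Rfc4 held 1372 reads against 388, Lat2 at that of Rfc2 held 1118 against 1599, and Wsb2 at that of Rfc5 held 277 against 1026.

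The polymerase genes followed no common level. Pola1, the catalytic subunit of the polymerase that starts each strand, had 141, 130 and 124 CPM. Pold1, catalytic for the lagging strand, had 47.4, 42.1 and 54.2 CPM, and Pole, catalytic for the leading strand, had 16.9, 18.1 and 16.3 CPM. Prim1, the catalytic primase subunit, lay between them at 30.3, 37.4 and 32.6 CPM. These 4 ranges did not overlap. Pola1 was highest in replicate 1 (1.13-fold, exact binomial adjusted p = 0.0220) and Pold1 in replicate 3 (1.29-fold, 0.0119), and Prim1 and Pole did not pass (0.0796 and 1). Pola1 was not called without replicate 1 or without replicate 3 (exact binomial adjusted p = 0.445 and 0.111), nor Pold1 without replicate 2 or without replicate 3 (0.0980 and 0.190), and Prim1 was called without replicate 3 (0.0407). Spib, which lies on the same strand within 1000 bases of the 3′ end of Pold1, held 2824 reads against 1272.

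Among the Okazaki fragment and single-strand binding genes, Lig1 stood far above its partner Fen1, and Rpa2 above Rpa1. Lig1 (chromosome 7, 13277283 to 13311433), the ligase that seals Okazaki fragments, had 588, 586 and 553 CPM from 5757, 4662 and 4820 reads and ranked 118 among all entries. Fen1, the flap endonuclease that acts just before it, had 53.7, 65.0 and 52.7 CPM, so Lig1 was 10.1-fold above it. Rpa2, a subunit of the protein that coats single-stranded DNA, had 104, 87.8 and 90.1 CPM, and Rpa1, the large subunit, had 53.6, 49.7 and 51.1 CPM. Rpa1 was below Rpa2 in 3 of 3 libraries, a log2 ratio of -0.85 ± 0.08 (SD, n = 3). Lig1, whose CV from counting alone was 1.40%, was called for a 1.06-fold difference (exact binomial adjusted p = 0.00415, and 0.859 without replicate 3). Fen1 was highest in replicate 2 (1.23-fold, 0.00276, and 0.863 without replicate 2) and Rpa2 in replicate 1 (1.18-fold, 0.00173, and 0.746 without replicate 1). Rpa1 did not pass (0.931), though it did on library totals (0.0246). Tmem258, which overlaps Fen1 on the opposite strand, held 1340 reads against 1503.

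Of the nucleotide supply genes, Rrm1 exceeded Rrm2 in every library. Rrm1, the large subunit of ribonucleotide reductase, had 167, 198 and 186 CPM, and Rrm2, the small subunit that limits the enzyme in cycling cells, had 102, 108 and 104 CPM. Tyms, which makes thymidylate, had 26.1, 22.5 and 27.3 CPM. Rrm1 was lowest in replicate 1 (1.18-fold, exact binomial adjusted p = 0.000139, and 0.171 without replicate 1), whereas Rrm2 and Tyms did not pass (0.898 and 0.229). The CV of Rrm2 was 2.84%, against 3.29% from counting alone.

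The 6 ratios inside the machinery, each computed within a library so that library size largely cancels, kept their sign in 3 of 3 libraries. The mean log2(CPM + 1) of Mcm2 to Mcm7 exceeded that of Orc1 to Orc6 by 2.16, 1.97 and 2.22 in replicates 1, 2 and 3, a 4.34-fold difference. It exceeded that of Gins1 to Gins4 by 2.38, 2.54 and 2.34, a 5.36-fold difference. By mean log2(CPM + 1), Pcna lay 0.51, 1.001 and 0.64 above Rfc1 to Rfc5, while Rfc1 alone was above Pcna in 3 of 3 libraries. Rrm2 minus Rrm1 was -0.71, -0.87 and -0.83, and Gmnn minus Cdt1 was -1.24, -1.22 and -1.40. The exact two-sided sign-flip permutation p was 0.25 for each of the 6 ratios, also after adjustment over them, and that is the smallest that 3 libraries can give. Against the summed level of the 5 loader genes the ratio of Pcna turned to -2.20. There a single gene is set against a sum, in which Rfc1 weighs more than in a mean of log2 values. Whether Pcna exceeded the arithmetic mean of the loader levels was not tested.

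Over all roles, 22 of the 38 genes (57.9%) were called, against 51.8% of all 11833 genes tested. Among genes with at least 300 reads, 21 of 37 replication genes were called against 60.0% of all such genes. The shares lay near the background. By size, 4 of the 38, Orc1, Orc4, Gins4 and Rfc5, were called with at least a 1.5-fold gap between the highest and lowest library, against 25.4% of all genes. With a minimum of 300 reads this was 3 of 37, against 16.5% of all genes at that depth. The median CV was 10.3%, where counting alone would give a median of 4.77%, against 16.2% over all genes tested and 12.1% over those with at least 300 reads. In the range of 10 to 30 CPM the median CV was 10.4% for 12 replication genes and 15.7% for all genes, and from 30 to 100 CPM it was 11.1% for 18 of them and 10.9% for all. From 100 to 300 CPM it was 7.33% for 6 of them and 9.19% for all, and from 300 to 1000 CPM 5.03% for 2 and 8.88% for all. Calls were fewer with 2 libraries: 16 were called without replicate 1, 12 without replicate 2 and 14 without replicate 3, when 34.4%, 32.8% and 34.4% of all genes were. The 1.5-fold rule, chosen after the data were seen, then left 3, 1 and 2 genes, against 13.6%, 12.5% and 13.8% of all genes.

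**Figure D3:**
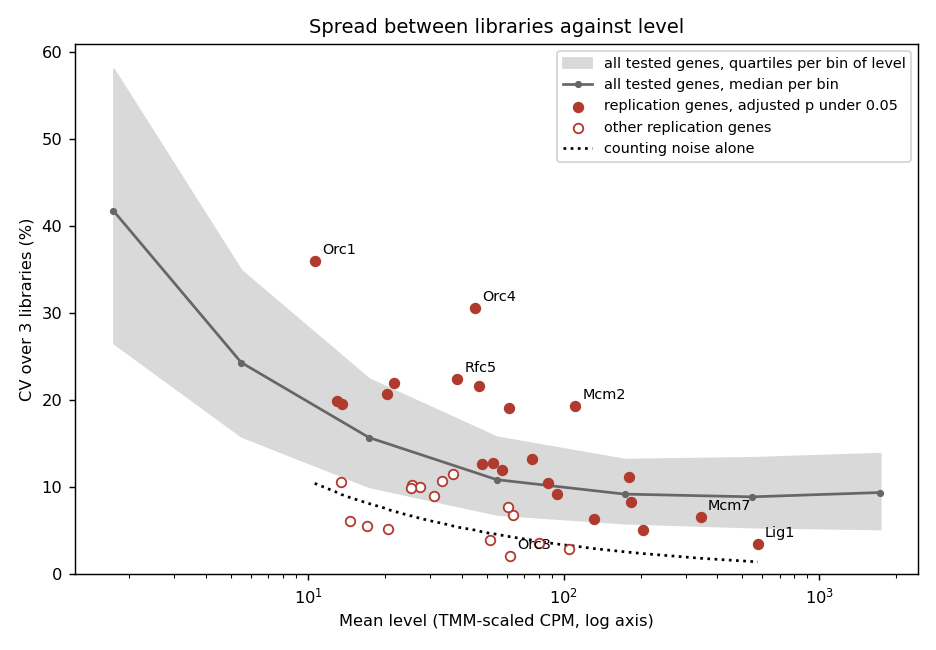
CV over the 3 libraries (%) against mean level (TMM-scaled CPM, log axis) for the 38 replication genes, filled where the adjusted p was under 0.05. The grey line and band give the median and quartiles of all tested genes per bin of level and the dotted line the CV from counting alone; Orc1 at 36.0% and Orc4 at 30.6% lie highest and Orc3 at 2.04% lowest.

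By library, 13, 17 and 8 of the 38 genes were highest in replicates 1, 2 and 3, where 32.6%, 33.7% and 33.7% of all tested genes were, and 18 were lowest in replicate 3, where 32.4% of all were. The summed level was 3043, 3205 and 2995 CPM, a CV of 3.58%. On library totals the counts of highest genes were 20, 15 and 3 and the summed level was highest in replicate 1 instead (3250, 3144 and 2859 CPM), so the place of replicate 2 as the highest depends on the scaling, and that of replicate 3 as the lowest does not. Genes highest in replicate 2 were spread over the roles, with 4 of 6 origin recognition genes, 3 of 6 MCM genes and 1 of 6 helicase activators among them.

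**Figure D4:**
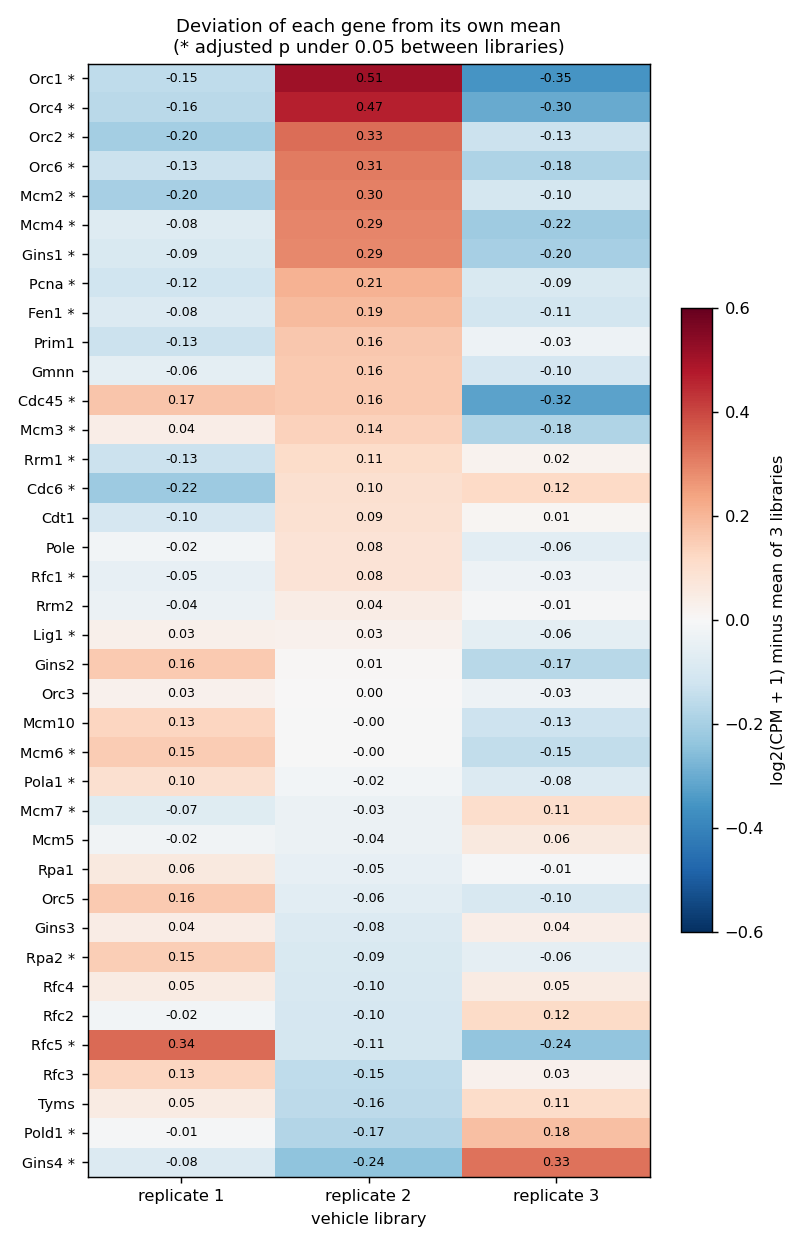
Log2(CPM + 1) of each replication gene minus its own mean over the 3 libraries, ordered by the value in replicate 2, with stars at genes called between libraries. Orc1 and Orc4 stand highest in replicate 2, at 0.51 and 0.47, and Gins4 lowest there, at -0.24, where it is 0.33 in replicate 3.

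Other replication and cell cycle genes, 88 in 9 lists that share no member with the 38, were called at a share of 54.0%: 47 of 87 tested genes were called, against 51.8% of all. Origin firing factors had 3 of 9 called, among them Topbp1, a scaffold for helicase activation, at 112, 128 and 88.2 CPM (exact binomial adjusted p = 1.09e-11). Fork protection and alternative loader genes also had 3 of 9, with Timeless, part of the fork protection complex, at 55.1, 43.5 and 34.7 CPM (exact binomial adjusted p = 1.29e-07). Nucleotide supply genes had 3 of 9, other polymerase subunits 2 of 8, Okazaki and topology genes 3 of 7, and degradation control genes 3 of 6. Chromatin assembly genes had 7 of 10 called, E2F and pocket protein genes 10 of 13, and mitosis genes 13 of 16. These counts were not matched to all genes by level. E2f2 was the highest E2F gene, at 334, 404 and 434 CPM, and was called (exact binomial adjusted p = 2.64e-25). Top2a, the topoisomerase of dividing cells, had 959, 951 and 967 CPM and did not pass (exact binomial adjusted p = 1). Mki67, a proliferation marker, had 1085, 1366 and 1101 CPM and was called (1.26-fold, exact binomial adjusted p = 5.38e-74). Pold4, a small accessory subunit of polymerase delta, had 0 reads in all 3 libraries.

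The marker lists of the marrow cell types moved between the same libraries, and their part in the results for the replication genes was not tested. The 10 erythroblast markers summed to 1762, 2399 and 2237 CPM in replicates 1, 2 and 3, with 7 of 10 highest in replicate 2 and 9 of 10 lowest in replicate 1. The 3 most abundant of them were not all highest in the same library. The carbonic anhydrase gene Car2 had 402, 581 and 441 CPM, while Alas2, which starts heme synthesis, had 319, 472 and 499.9 CPM and Slc4a1, the band 3 anion exchanger, had 336, 444 and 473 CPM. The 7 promyelocyte markers analysed summed to 2006, 1536 and 2009 CPM. The 10 neutrophil markers summed to 81993, 69066 and 94168 CPM, and 10 of 10 were lowest in replicate 2. Pro-B and pre-B markers summed to 665, 668 and 545 CPM and stem and progenitor markers to 347, 360 and 296 CPM, both sums lowest in replicate 3. By gene, 6 of 10 pro-B and pre-B markers and 5 of 8 tested stem and progenitor markers were lowest there. Most of the stem and progenitor sum was Myb, at 251, 258 and 205 CPM. The other 3 tested markers of that list, Kit and Cd34 among them, were lowest in replicate 1. Monocyte and macrophage markers summed to 1226, 1308 and 1510 CPM, T and NK cell markers to 77.4, 74.2 and 94.7 CPM, megakaryocyte markers to 450, 403 and 417 CPM, and niche stroma markers to 289, 268 and 224 CPM, also lowest in replicate 3. The summed replication genes were lowest there too. No marker analysed was at 0 reads in all 3 libraries. The mitosis genes summed to 3043, 3445 and 3028 CPM, also highest in replicate 2.

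**Figure D5:**
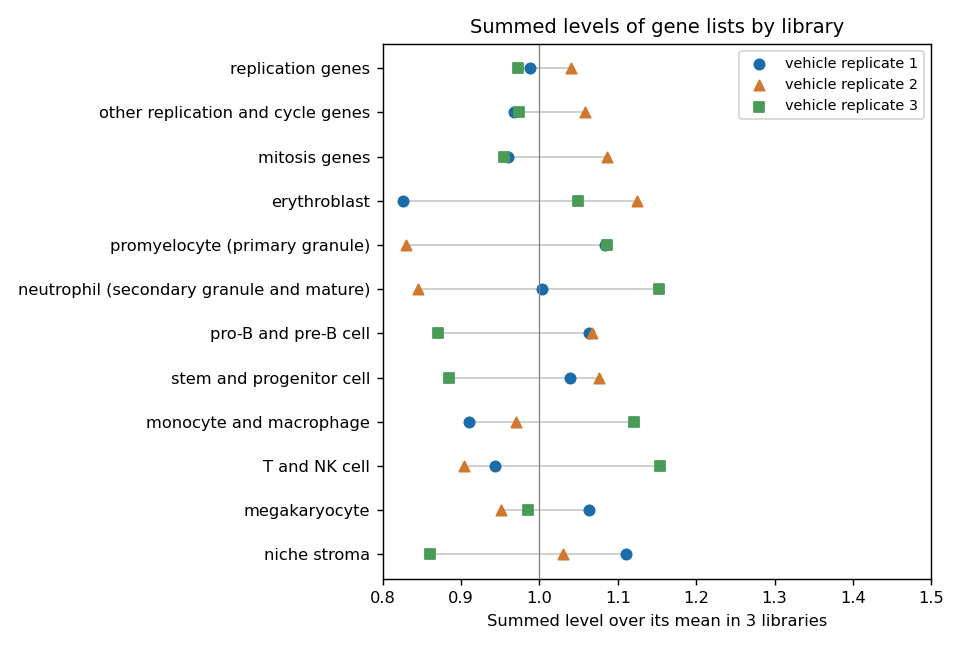
Summed level of each gene list in a library over its mean in the 3 libraries, for the 38 replication genes, the other replication and cycle genes, the mitosis genes and 9 marker lists. On TMM scaling the replication genes span 0.972 to 1.04, a narrower range than any marker list, with erythroblast markers from 0.826 to 1.12. The marker lists hold fewer genes. Among the other replication lists, not drawn singly, nucleotide supply (0.974 to 1.02), chromatin assembly (0.972 to 1.02) and fork protection (0.961 to 1.02) were narrower still.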

How the data were processed

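The deposited values of each library are log2(x + 1), where x is reads per 1000000 of a scaled library size set by the authors. Reads were aligned with Bowtie2 to mm10 and handled with bedtools, per the submitters' processing notes; the sources used here do not give versions, annotation, strand setting or normalization. Every value gave a whole read number (tolerance 1e-06), so reads were recovered exactly and rescaled by TMM (30% and 5% trims). Each library was tested against the others with a two-sided exact binomial test, in Python 3.11.15 with scipy 1.17.1 and checked on simulated data. The smallest p was multiplied by 3 and adjusted over all genes with at least 30 reads. With a library left out, the other 2 were compared in a single test, whose p was adjusted without that multiplication. Depth was 8104828 to 9168435 reads per library, and counting intervals cover counting error only. The rule for named genes took all 38, genes of the other replication and cell cycle lists, the 3 most abundant markers of each cell type and entries within 1000 bases of a member's 3′ end or overlapping it. The members and lists were chosen with earlier results of these data known, and the 1.5-fold rule, the 300-read background, the bins of level and the use of any listed promoter start were added after values were seen. Positions are from GENCODE on GRCm38 and promoters from RefSeq (GRCm38.p6), matched by symbol. Protein sequences were not used here.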

Additional observations from a re-analysis of the deposited data

How the results depend on the processing

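Under the other scalings, read minimums and the chi-square test, 22 to 24 of the replication genes were called, while the share of all genes called ran from 42.3% with no read minimum to 61.5% with 300 reads. At 300 reads the replication genes, at 59.5%, lay below that share, and in the other settings of this kind above it. Leaving out a library gave 12 to 16, with 3690 to 3867 of all genes called, and 1 to 3 genes passed the 1.5-fold rule. None of the 22 calls held under every alternative, while 10 genes stayed not called under all of them. How many calls over all genes held was not counted, so this is not shown to be particular to the replication genes. Leaving out a library also cut the share of all genes called, from 51.8% to between 32.8% and 34.4%. The summed level was 2931 CPM with the deposited scaling and 2506 CPM without Lig1, against 3081 CPM. On library totals 20 genes were highest in replicate 1 and 3 in replicate 3, instead of 13 and 8. The log2 ratio of Pcna to its loader turned to -2.20 with summed levels, where 5 genes are summed on one side and Rfc1 weighs most. The other 5 ratios kept their sign under the alternatives run. That of Mcm2 to Mcm7 over Gins1 to Gins4 rose from 2.42 to 3.22 with summed levels, where more genes are summed on the MCM side and the most abundant genes weigh most. No paired analysis was possible because the samples form 1 group. The planned protein motif search was not run. Orc1 had 68 reads in replicate 3, the lowest count of the 38 genes in any library. Its counting error relative to its level was the largest of them.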
